A study of Rattus norvegicus and Mus musculus with 34 samples.

Results

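The 10 genes described here are regulators and early products of skeletal muscle formation: the transcription factors Pax7, Myf5, Myod1, Myog and Myf6, the fusion protein Mymk, the embryonic and neonatal myosin heavy chains Myh3 and Myh8, and the acetylcholine receptor subunits Chrna1 and Chrng. They were taken by gene symbol from the 20022 genes measured in the rat tissue, and all 10 were found, under the gene identifiers 500574 (Pax7), 299766 (Myf5), 337868 (Myod1), 29148 (Myog), 25714 (Myf6), 296601 (Mymk), 24583 (Myh3), 252942 (Myh8), 79557 (Chrna1) and 25753 (Chrng). The rule used the symbols and no measured value. The question put to them was whether the muscle signal in this tissue is that of muscle being formed or of mature muscle.

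Skeletal muscle regenerates from satellite cells, which lie along the fibre and express Pax7. Once activated they take on Myf5 and Myod1 as myoblasts, then Myog as they leave the cell cycle and differentiate, and they fuse by means of Mymk into myotubes that first make Myh3 and Myh8 before the adult myosins Myh1, Myh2, Myh4 and Myh7. Chrna1 and Chrng belong to the fetal acetylcholine receptor of the muscle membrane, in which Chrng gives way to Chrne as the synapse matures. Fibres that lose their motor nerve are known to raise several of the same genes, Myog, Chrna1 and Chrng among them. The inferior alveolar nerve, which was cut here, is the sensory nerve of the mandible.

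RNA was sequenced from healing tissue inside a periodontal bone defect that had been made in the mandible of male wild-type (WT) Sprague-Dawley rats, 6–8 weeks old. The nerve was left in place (sensory nerve+) or a segment of it was removed when the defect was made (sensory nerve−), and tissue was taken on day 3, 7 or 14. The sensory nerve+ groups held 3, 4 and 4 rats and the sensory nerve− groups 4, 4 and 4, each rat with its own library, 23 in all. All rats had the bone defect, so no group shows uninjured tissue, and the labels call the samples mixed cells without naming muscle. The 4 sensory nerve− rats of day 7 were deposited in a table of their own, and their day is given in their titles only. Any comparison that uses these rats may therefore mix an effect of the separate deposit with that of nerve or day. This holds for the transection on day 7, days 7 over 3 and 14 over 7 without the nerve, and both interactions. The correlations over the rats of day 7 also pool these rats with the sensory nerve+ rats of that day.

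Levels are CPM, counts of a gene relative to the total of its library, after TMM scaling, and comparisons were made by edgeR's quasi-likelihood test with Benjamini-Hochberg adjustment over all genes tested in a comparison, a gene being called at an adjusted p under 0.05. Between 14854389 and 18742274 counts were assigned per rat, so that 3 counts, the floor used here, correspond to 0.128 to 0.331 CPM. All 10 genes passed the filter on low counts in the fit of all rats, and every rat of day 7 had all 10 above the floor. Defining markers of bone were high in every rat: the 8 osteoblast genes summed to between 5341 and 43552 CPM. Against this the 30 genes of a mature muscle list (Acta1, Ckm, Myh1, Myh2, Ryr1, Ttn and others) summed to between 44.7 and 73822 CPM. In bulk tissue fewer muscle cells and less RNA per cell cannot be told apart.

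The sequences before the start sites of 5 of the genes are shown because the myogenic factors among the 10 bind the E-box, CANNTG. RefSeq promoters (build GRCr8) were found for 8 of the 10 genes, all but Myod1 and Mymk. Each line gives the 250 bases before the start, 5′ to 3′ on the strand of the gene, with every match to CANNTG and, in Myf6, to the MEF2 motif in capitals.
Myog (chr13:48297226-48297475, plus strand): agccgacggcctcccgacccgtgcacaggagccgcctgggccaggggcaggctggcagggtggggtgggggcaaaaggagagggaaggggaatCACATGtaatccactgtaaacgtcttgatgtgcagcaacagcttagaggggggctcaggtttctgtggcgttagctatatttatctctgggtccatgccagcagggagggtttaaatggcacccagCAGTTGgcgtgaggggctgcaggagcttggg
Myf6 (chr7:44701314-44701563, minus strand): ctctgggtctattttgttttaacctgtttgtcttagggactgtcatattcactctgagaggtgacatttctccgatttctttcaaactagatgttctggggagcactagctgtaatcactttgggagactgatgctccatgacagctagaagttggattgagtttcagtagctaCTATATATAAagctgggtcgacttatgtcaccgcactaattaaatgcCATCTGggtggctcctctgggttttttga
Myh3 (chr10:52268935-52269184, plus strand): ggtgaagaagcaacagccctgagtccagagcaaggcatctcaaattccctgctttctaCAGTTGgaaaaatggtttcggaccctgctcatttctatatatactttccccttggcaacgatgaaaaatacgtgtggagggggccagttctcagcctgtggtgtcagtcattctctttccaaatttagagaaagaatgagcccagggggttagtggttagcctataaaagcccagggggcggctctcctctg
Chrna1 (chr3:78877354-78877603, minus strand): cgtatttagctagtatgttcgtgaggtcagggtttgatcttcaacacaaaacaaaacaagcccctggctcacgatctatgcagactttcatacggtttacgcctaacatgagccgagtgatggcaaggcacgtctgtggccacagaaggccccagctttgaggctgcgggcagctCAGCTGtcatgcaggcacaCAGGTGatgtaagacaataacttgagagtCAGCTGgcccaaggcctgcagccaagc
Chrng (chr9:95325734-95325983, plus strand): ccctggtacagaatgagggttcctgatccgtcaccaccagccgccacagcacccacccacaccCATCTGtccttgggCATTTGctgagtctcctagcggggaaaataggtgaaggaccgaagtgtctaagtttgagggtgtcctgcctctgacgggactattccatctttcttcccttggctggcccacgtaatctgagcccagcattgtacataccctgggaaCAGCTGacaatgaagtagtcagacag

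Myog and Myh3 held 2 and 1 matches to CANNTG, Chrna1 and Chrng 3 each, and Myf6 1, whereas Pax7, Myf5 and Myh8 held none in this window. The motif is common: 65.5% of the 33469 promoters searched on both strands held it, as did 5 of the 8. The palindrome CAGCTG, which is one form of CANNTG, was found in Chrna1 (2 matches) and Chrng (1 match) and in 12.0% of all promoters. The MEF2 motif, taken as YTAWWWWTAR (Y is C or T, W is A or T, R is A or G), was found in Myf6 alone among the 8, and in 2.96% of all promoters. Looser forms were not searched, so a gene without a match may still hold a related site. The Myog line holds ctatatttat and the Myh3 line ctatatatac, each of which departs from this pattern in its last base. The sequence TATAAA was found in Myf6, where it overlaps the MEF2 match, in Myh3, and in 12.9% of all promoters. The 2 genes Myf5 and Myf6 neighbour each other on chromosome 7, and Myh3 and Myh8 lie in 1 cluster with Myh1, Myh2 and Myh4 on chromosome 10. Reads had been aligned to another build, mRatBN7.2, and the counts were not read by position.

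**Figure D1:**
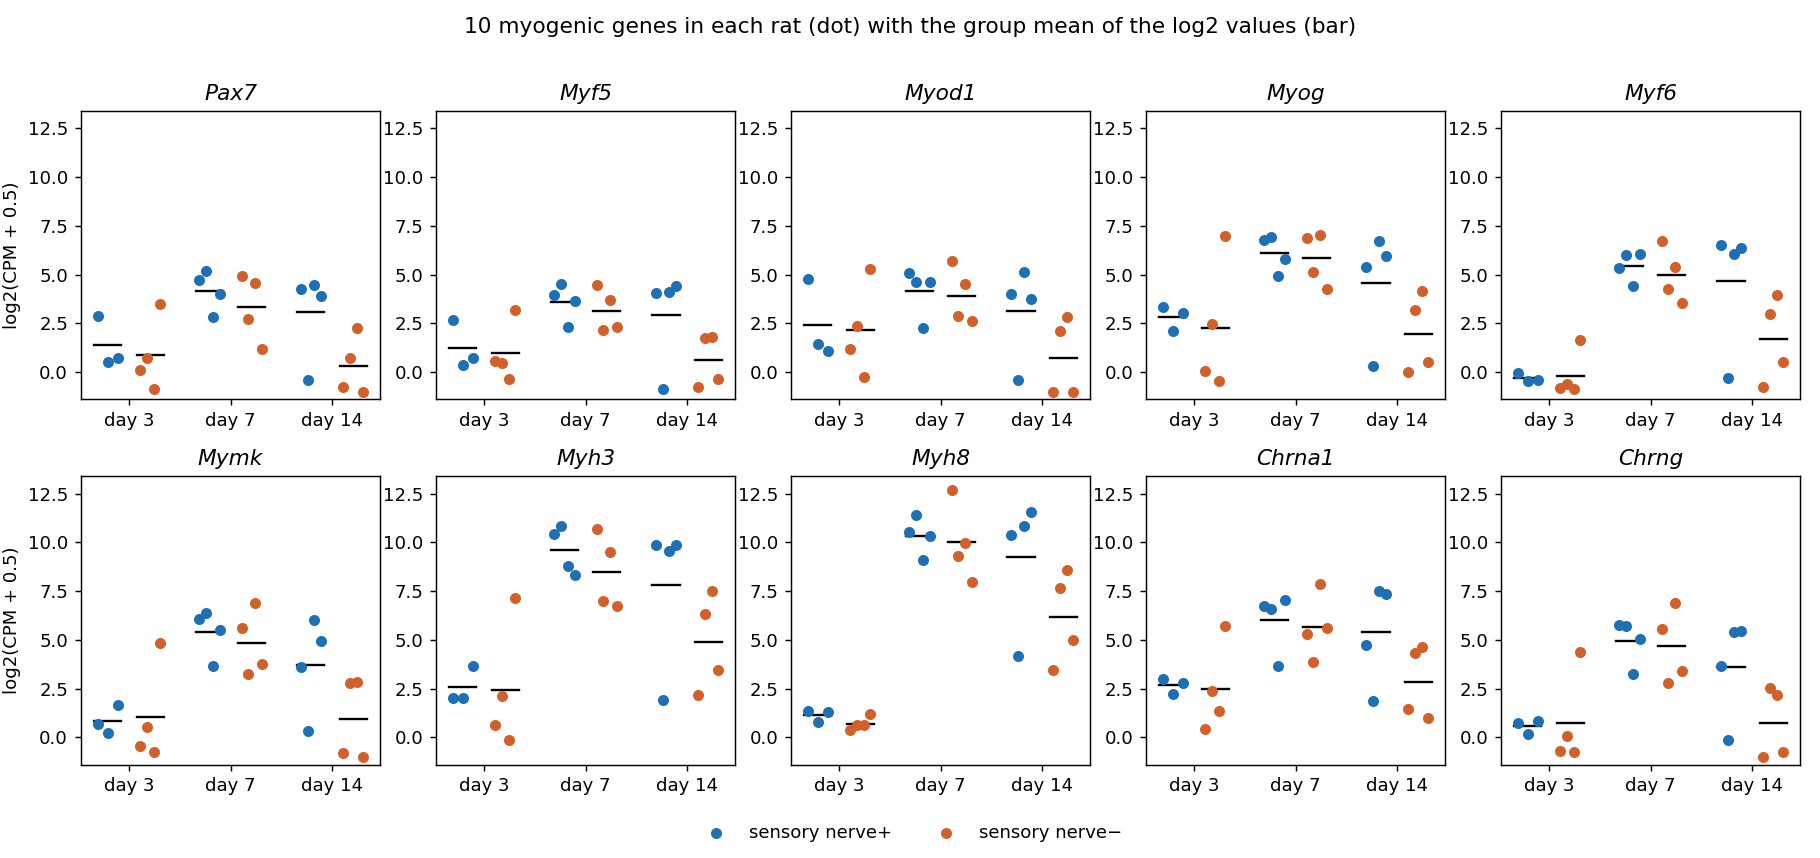
Level of each of the 10 genes as log2(CPM + 0.5) in each of 23 rats, by day and nerve group (blue, sensory nerve+; orange, sensory nerve−); bars are group means of the log2 values. Most rats are low on day 3 and high on day 7, 1 sensory nerve− rat of day 3 lies far above the other sensory nerve− rats of that day for every gene but Myh8, and on day 14 the sensory nerve+ rats separate into 3 high and 1 low.

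Pax7, the factor that marks satellite cells, was scarce on day 3 and had its highest mean on day 7 in both nerve groups. On day 3 sensory nerve+ replicates 1 to 3 had 6.73, 0.952 and 1.13 CPM. On day 7, replicates 1 to 4 had 25.8, 36.1, 6.58 and 15.3 CPM, so that the lowest rat of day 7 lay just under the highest rat of day 3. On day 14 they had 18.9, 0.25, 21.5 and 14.4 CPM, with replicate 2 down at 5 counts. Without the nerve the values were 0.580, 1.14, 0.0466 and 10.7 CPM on day 3 and 30.1, 6.18, 22.8 and 1.74 CPM on day 7. Both days overlapped there too, through replicate 4 of day 3. On day 14 these rats had 0.0818, 1.13, 4.31 and 0 CPM, all under the 3 high sensory nerve+ rats of that day, and 2 of them at or under the floor. The fitted log2 differences between days 7 and 3 were 2.87 ± 0.91 (SE, n = 3 and 4; edgeR adjusted p = 0.107) with the nerve intact and 2.30 ± 1.37 (n = 4 and 4; edgeR adjusted p = 0.303) without it, neither past the threshold. DESeq2 called the first of them (2.85, adjusted p = 0.00516).

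Myf5, a factor of committed myoblasts, followed the same rats. With the nerve intact it ranged from 0.762 to 5.95 CPM on day 3, from 4.40 to 22.6 CPM on day 7 and from 0.050 to 21.1 CPM on day 14. Without the nerve the ranges were 0.280 to 8.46, 3.96 to 21.2 and 0.0818 to 2.98 CPM. The days 3 and 7 overlapped in both nerve groups, and the log2 differences of 2.41 ± 0.87 and 2.0 ± 1.05 did not pass (edgeR adjusted p = 0.146 and 0.249). The first of them was called by DESeq2 (2.40, adjusted p = 0.0219).

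Myod1, the factor that commits cells to the muscle lineage, was the member with the smallest difference between days 3 and 7. Sensory nerve+ rats had 27.1, 2.24 and 1.59 CPM on day 3 and 33.2, 24.0, 4.23 and 23.7 CPM on day 7. Sensory nerve− rats had 1.80, 4.65, 0.326 and 38.2 CPM on day 3 and 51.5, 6.77, 22.6 and 5.53 CPM on day 7. In each nerve group 1 rat of day 3 was already within the range of day 7, replicate 1 with the nerve intact and replicate 4 without it. The log2 differences were 1.07 ± 1.10 and 0.95 ± 1.29 (edgeR adjusted p = 0.609 and 0.663). On day 14 the 4 sensory nerve+ rats had 15.6, 0.25, 34.1 and 13.1 CPM and the 4 sensory nerve− rats 0, 3.78, 6.62 and 0 CPM, the latter with 2 rats in which Myod1 was not detected, which allows up to 3 counts in each.

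Myog, the factor that drives differentiation, rose about an order of magnitude with the nerve intact. On day 3 the sensory nerve+ rats had 9.48, 3.81 and 7.70 CPM. On day 7 they had 110.0, 122, 29.4 and 55.6 CPM, every rat above those of day 3, and the log2 difference of 3.54 ± 0.60 was past the threshold (edgeR adjusted p = 0.0208). On day 14 they had 40.9, 0.750, 104 and 61.7 CPM, 3 rats near day 7 and 1 under day 3. The sensory nerve− rats had 0.522, 4.94, 0.233 and 124 CPM on day 3 and 118, 34.8, 131 and 18.7 CPM on day 7. Replicate 4 of day 3 was as high as the highest rats of day 7, and the log2 difference of 1.23 ± 1.62 did not pass (edgeR adjusted p = 0.654). Without that rat the difference was 5.31 and did not pass either (edgeR adjusted p = 0.0632). On day 14 they had 0.491, 8.62, 17.4 and 0.925 CPM, each below every sensory nerve− rat of day 7.

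Myf6, known for its place in late differentiation and mature fibres, was near the limit of detection on day 3 and rose in both nerve groups. The sensory nerve+ rats of day 3 had 0.458, 0.238 and 0.257 CPM, from 5 to 7 counts each. On day 7 they had 40.5, 62.5, 21.0 and 65.6 CPM, a log2 difference of 7.26 ± 0.57 (edgeR adjusted p = 0.00163). On day 14 they had 89.3, 0.300, 66.2 and 80.7 CPM. The groups of days 3 and 7 were far apart, and the low rat of day 14 was back among those of day 3. Without the nerve Myf6 had 0.0580, 0.142, 0.0466 and 2.57 CPM on day 3, with 3 rats at or under the floor and 48 counts in replicate 4. On day 7 it had 105, 18.9, 40.7 and 10.9 CPM, a log2 difference of 5.97 ± 1.35 (edgeR adjusted p = 0.0325). On day 14 it had 0.0818, 7.44, 15 and 0.925 CPM. Unlike the factors before it, Myf6 in the sensory nerve− rat of day 3 that was high for Myog lay below every sensory nerve− rat of day 7. It was still above the other rats of its own group.

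Mymk, the membrane protein without which myoblasts do not fuse, ranged from 0.666 to 2.67 CPM on day 3 and from 12.3 to 82.5 CPM on day 7 with the nerve intact, without overlap, a log2 difference of 5.16 ± 0.83 (edgeR adjusted p = 0.0174). Without the nerve it ranged from 0.0932 to 0.950 CPM in 3 rats of day 3 and at 27.9 CPM in replicate 4, and had 48.5, 8.89, 117 and 12.9 CPM on day 7, with a log2 difference of 2.69 ± 1.62 (edgeR adjusted p = 0.309). On day 14 it ranged from 0.750 to 65.1 CPM with the nerve intact and from 0 to 6.62 CPM without it. Of the 5 genes of a fusion list, Tmem182 (log2 difference 6.16, edgeR adjusted p = 0.00332) and Mymx, the partner of Mymk in fusion (3.50, edgeR adjusted p = 0.0457), also rose between days 3 and 7 with the nerve intact. None of the 5 was called without the nerve, where Tmem182 differed by 4.0, Mymx by 1.98 and Bin3 by -0.20; 1 of the 5 had an unadjusted p under 0.05.

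Both developmental myosins rose steeply between days 3 and 7 with the nerve intact. Myh3, the embryonic heavy chain, had 3.53, 3.62 and 12.2 CPM on day 3 in sensory nerve+ rats and 1379.9, 1849.7, 435 and 317 CPM on day 7. The log2 difference of 7.31 ± 1.02 was past the threshold (edgeR adjusted p = 0.0108) and all 4 rats of day 7 lay above all 3 of day 3. On day 14 the values were 919, 3.25, 746 and 935 CPM, so that replicate 2 alone was back at the level of day 3. Without the nerve Myh3 had 1.04, 3.94, 0.419 and 143 CPM on day 3 and 1627, 129, 733 and 106 CPM on day 7. Replicate 4 of day 3 thus lay above 2 rats of day 7, and the log2 difference of 4.14 ± 1.90 did not pass (edgeR adjusted p = 0.194). On day 14 they had 4.09, 79.6, 181 and 10.6 CPM, under the 3 high sensory nerve+ rats.

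Myh8, the neonatal heavy chain, was the only member whose rats of day 3 all lay below all rats of days 7 and 14. It lay between 0.812 and 2.03 CPM in all 7 rats of day 3, of both nerve groups, and never under 10.3 CPM after that. On day 7 the sensory nerve+ rats had 1477, 2749, 552 and 1308 CPM (log2 difference to day 3 of 9.79 ± 0.77, edgeR adjusted p = 0.00163) and the sensory nerve− rats 6710.4, 639, 1020.1 and 251 CPM (10.83 ± 1.39, edgeR adjusted p = 0.0140). On day 14 they had 1328, 17.7, 1861 and 3050.0 CPM with the nerve intact and 10.3, 200.3, 387 and 31.3 CPM without it. Even the lowest of these, at 126 counts, lay above every rat of day 3. Myh8 was the only member called between days 14 and 3, higher by 9.82 ± 1.81 with the nerve intact (edgeR adjusted p = 0.0404) and by 7.02 ± 1.22 without it (edgeR adjusted p = 0.00782). The first of these calls was lost without any 1 of 6 of the 7 rats, sensory nerve+ replicates 1, 2 and 3 of day 3 and 1, 3 and 4 of day 14, at log2 differences of 9.28 to 9.95, and the second was kept in all 8 fits with 1 rat left out. The calls stand against a background of 2.69% and 8.89% of the genes tested that were called higher. Without sensory nerve+ replicate 2 of day 14, 7 members were called with the nerve intact, Myog, Myf6, Mymk, Myh3, Chrna1 and Chrng in addition to Myh8, in a fit that called 3133 genes in all, higher and lower.

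The adult heavy chains rose beside them. Myh1, Myh2, Myh4 and Myh7 differed between days 7 and 3 by 8.65, 9.39, 11.29 and 7.61 on the log2 scale with the nerve intact and by 7.95, 10.33, 9.49 and 3.27 without it, all past the threshold except Myh7 without the nerve (edgeR adjusted p = 0.273). Of the counts of the 6 heavy chain genes together, Myh3 and Myh8 made up 44.9% ± 14.5 (SD, n = 4) on day 7 and 41.7% ± 9.71 (n = 4) on day 14 with the nerve intact, and 51.4% ± 3.31 (n = 4) and 46.9% ± 15.5 (n = 4) without it. Over the 16 rats of these days the share ran from 24.0% to 57.7%. On day 3 it was 55.1% ± 19.9 (n = 3) and 55.2% ± 24.9 (n = 4), with the heavy chains down at 68 to 397 counts in 6 of the 7 rats. The developmental share of heavy chain counts therefore overlapped between all groups, and the low-muscle rats of day 14 did not stand apart in it: sensory nerve+ replicate 2 had 43.8% of 957 counts (95% Wilson interval 40.7 to 46.9) and sensory nerve− replicates 1 and 4 had 57.0% of 309 and 50.4% of 899.

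Within the developmental pair the balance differed with the day. Myh3 made up 63.5%, 74.5% and 85.9% of the counts of Myh3 and Myh8 on day 3 with the nerve intact. It made up 48.3%, 40.2%, 44.1% and 19.5% in those of day 7, all below day 3, and 40.9%, 15.5%, 28.6% and 23.5% in those of day 14. Without the nerve it was 56.2%, 79.0%, 28.1% and 98.8% on day 3, on as few as 32 counts in replicates 1 and 3, and 19.5%, 16.8%, 41.8% and 29.8% on day 7. On day 14 it lay between 25.4% and 31.9%. These shares were described and not tested. The heavy chain genes are close copies of each other in 1 cluster, and the deposited expected counts share reads between such genes, so that the split between them is less certain than their sum.

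**Figure D2:**
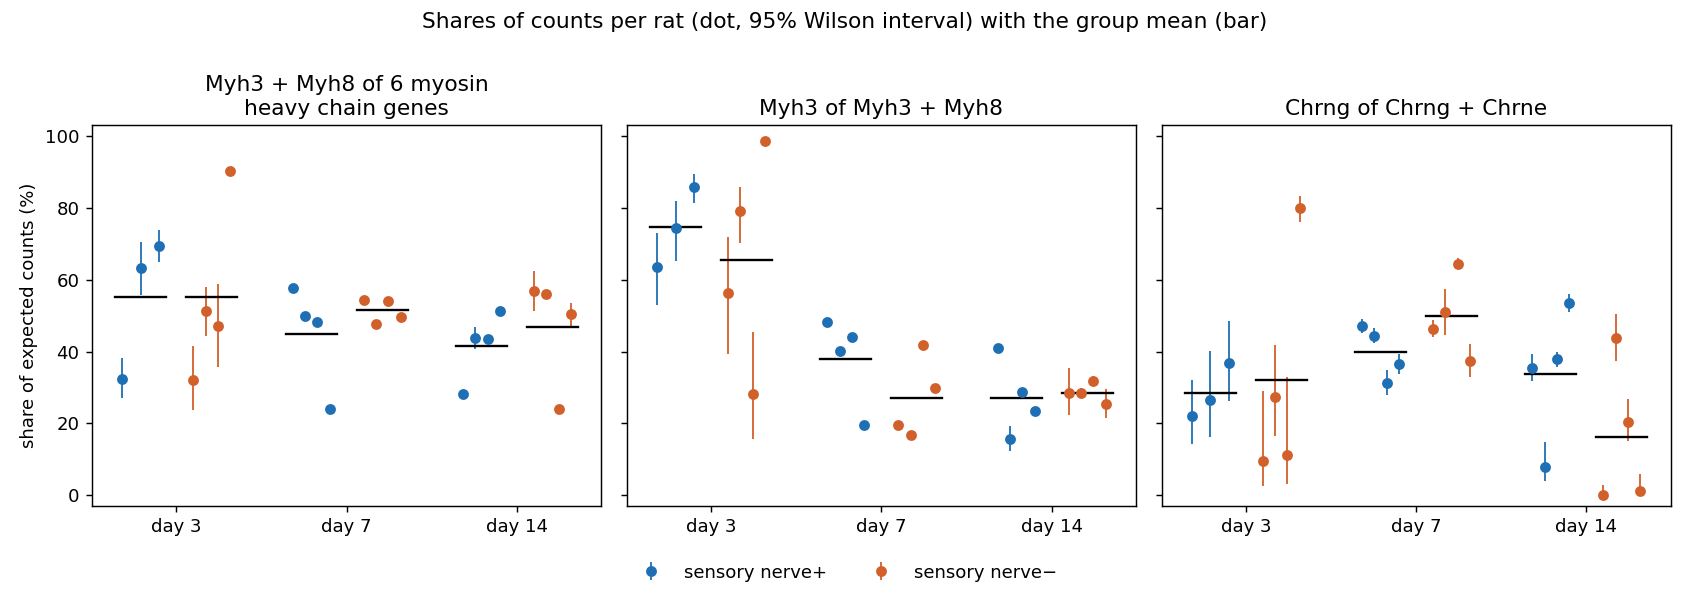
Shares of expected counts in each rat in percent, with 95% Wilson intervals that cover counting error only and bars at the group means: Myh3 and Myh8 in 6 myosin heavy chain genes (left), Myh3 in Myh3 and Myh8 (middle) and Chrng in Chrng and Chrne (right), by day and nerve group. The left share overlaps between all groups, the middle one is above 60% in all 3 sensory nerve+ rats of day 3 and under 50% in every rat of days 7 and 14, and the right one is highest in sensory nerve− replicate 4 of day 3 and lowest in 2 sensory nerve− rats of day 14.

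Chrng, the fetal receptor subunit, had 1.18, 0.619 and 1.28 CPM on day 3 with the nerve intact and 54.7, 51.6, 9.02 and 32.6 CPM on day 7, a log2 difference of 5.21 ± 0.73 (edgeR adjusted p = 0.0108). The sensory nerve− rats had 0.116, 0.570, 0.0932 and 20.5 CPM on day 3 and 46.1, 6.45, 120.5 and 10.1 CPM on day 7, where the log2 difference of 3.11 ± 1.68 did not pass (edgeR adjusted p = 0.26). The groups did not overlap with the nerve intact, and overlapped through replicate 4 of day 3 without it. On day 14 the values were 12.4, 0.40, 42.3 and 43.3 CPM and 0, 5.35, 3.97 and 0.0925 CPM.

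Chrna1, the subunit that both the fetal and the adult receptor contain, ranged from 4.19 to 7.58 CPM on day 3 and from 12.3 to 133 CPM on day 7 with the nerve intact (log2 difference 3.88 ± 0.79, edgeR adjusted p = 0.0349). Sensory nerve− rats had 0.870, 4.70, 2.05 and 52.6 CPM on day 3 and 38.3, 14.4, 237 and 48.4 CPM on day 7 (2.49 ± 1.37, edgeR adjusted p = 0.269), and 2.21, 20.0, 24.0 and 1.48 CPM on day 14. Replicate 3 of day 7 had the highest Chrna1, Chrng, Mymk and Myog of its group, while replicate 1 had the highest Myh3, Myh8 and Myf6.

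Set against Chrne, the adult subunit, Chrng made up 28.4% ± 7.58 (SD, n = 3) of their counts on day 3, 39.8% ± 7.26 (n = 4) on day 7 and 33.6% ± 19 (n = 4) on day 14 with the nerve intact, and 32.0% ± 33.0, 49.9% ± 11.3 and 16.3% ± 20.6 (n = 4 each) without it. Chrne rose in both nerve groups, by 4.27 ± 0.55 between days 3 and 7 with the nerve intact (edgeR adjusted p = 0.00803) and by 4.07 ± 0.92 without it (edgeR adjusted p = 0.0328). On day 14 without the nerve Chrng held 0 of 134 counts in replicate 1, which allows a share of up to 3 counts, and 1 of 91 in replicate 4, against 43.8% and 20.3% in replicates 2 and 3. Of 16 genes of the neuromuscular junction and of denervation, 6 rose between days 3 and 7 with the nerve intact, led by Chrnd (6.12), Chrnb1 (4.41) and Chrne, and 3 without it, Trim63 (5.50), Ache (3.78) and Chrne; none fell. The list median was 2.57 and 1.92, under that of the mature muscle list at 8.05 and 7.24, and the median of all genes tested was 0.05 and -0.01.

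Between days 3 and 7 with the nerve intact, 7 of the 10 genes were called higher (Myog, Myf6, Mymk, Myh3, Myh8, Chrna1 and Chrng) and none lower, against 4.88% of 15016 genes called higher. The same 7 were those whose rats did not overlap between the days, as was so for 12.7% of genes in this direction. The median log2 difference of the 10 was 4.52, and all 30 mature muscle genes were called, from 5.32 upwards. The fetal sarcomere list rose in 6 of 7 genes (Tnni1 6.76, Tnnt1 5.91, Actc1 5.45), and the satellite cell and myoblast list, which holds less specific genes, in 5 of 24 (Dlk1 5.89, Six4 1.07), with a median of 0.99. Beside this, 7 of 8 cell cycle genes fell, with a median of -1.55 (1.79% of genes were called lower), from summed levels of 548 to 828 CPM on day 3 to 212 to 350 CPM on day 7; their part in the result was not tested. Only Myf6 and Myh8 were called in each of the 7 fits with 1 rat left out; Myh3 was called in 6, Chrng in 5, Mymk in 4, Myog in 3 and Chrna1 in 1. Without sensory nerve+ replicate 1 of day 3, 2 members were called, without replicate 3 of day 3 or replicate 1 or 2 of day 7, 4 each, and without replicate 2 of day 3 or replicate 4 of day 7, 6 each. These 7 fits called 254 to 1547 genes in all. With all 23 rats in 1 fit, only Myf6 and Myh8 of the 10 were called, while 1039 genes were called in all, against 1002. With 1 rat left out, the log2 differences of called members moved less (Myog 3.23 to 3.81, Chrna1 3.64 to 4.24, Myh3 6.81 to 8.15). Those of the uncalled members moved more (Myod1 0.56 to 3.46, Pax7 2.44 to 4.32, Myf5 1.97 to 3.84).

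Without the nerve, 2 of the 10 genes were called higher between days 3 and 7, Myf6 and Myh8, and none lower, against 3.68% of 14576 genes called higher. Only these 2 did not overlap between the days, as was so for 9.16% of genes. All 10 differences were positive, with a median of 2.59, and 21 of 30 mature muscle genes were called. The day 7 rats of this comparison were those deposited apart, so the separate deposit may contribute to these differences and to the interaction below. The call of Myf6 was lost without replicate 1, 2 or 3 of day 3 or replicate 1 or 3 of day 7, at log2 differences of 5.06 to 6.00, and that of Myh8 without replicate 1 of day 3 (10.69) or replicate 3 of day 7 (11.07). Without replicate 4 of day 3, 6 members were called, with Myf5 at 3.90, Mymk at 6.75, Myh3 at 8.49 and Chrng at 7.40 in addition. The 8 fits with 1 rat left out called 0 to 1359 genes in all, and the number in this fit is not given. In the fit of all rats of this comparison, all 8 cell cycle genes fell, with a median of -2.12 (6.77% of genes were called lower). The 3 of 3 epithelial genes tested fell too, from summed levels of 31.4 to 485 CPM to 0.899 to 7.91 CPM. Their part was not tested. The change between days 3 and 7 was not shown to differ between the nerve groups: the interaction of transection and day was called for 0 of 15858 genes by edgeR (0% called; 164, or 1.03%, at an unadjusted p under 0.05, and 8 by DESeq2), and lay between -3.14 (Myh3, SE 2.28) and 1.08 (Myh8, SE 1.67) for the members. Without sensory nerve− replicate 4 of day 3 the interaction of Myh3 turned to 1.21. The median over the members turned from -1.31 to 1.66, and no member was called.

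**Figure D3:**
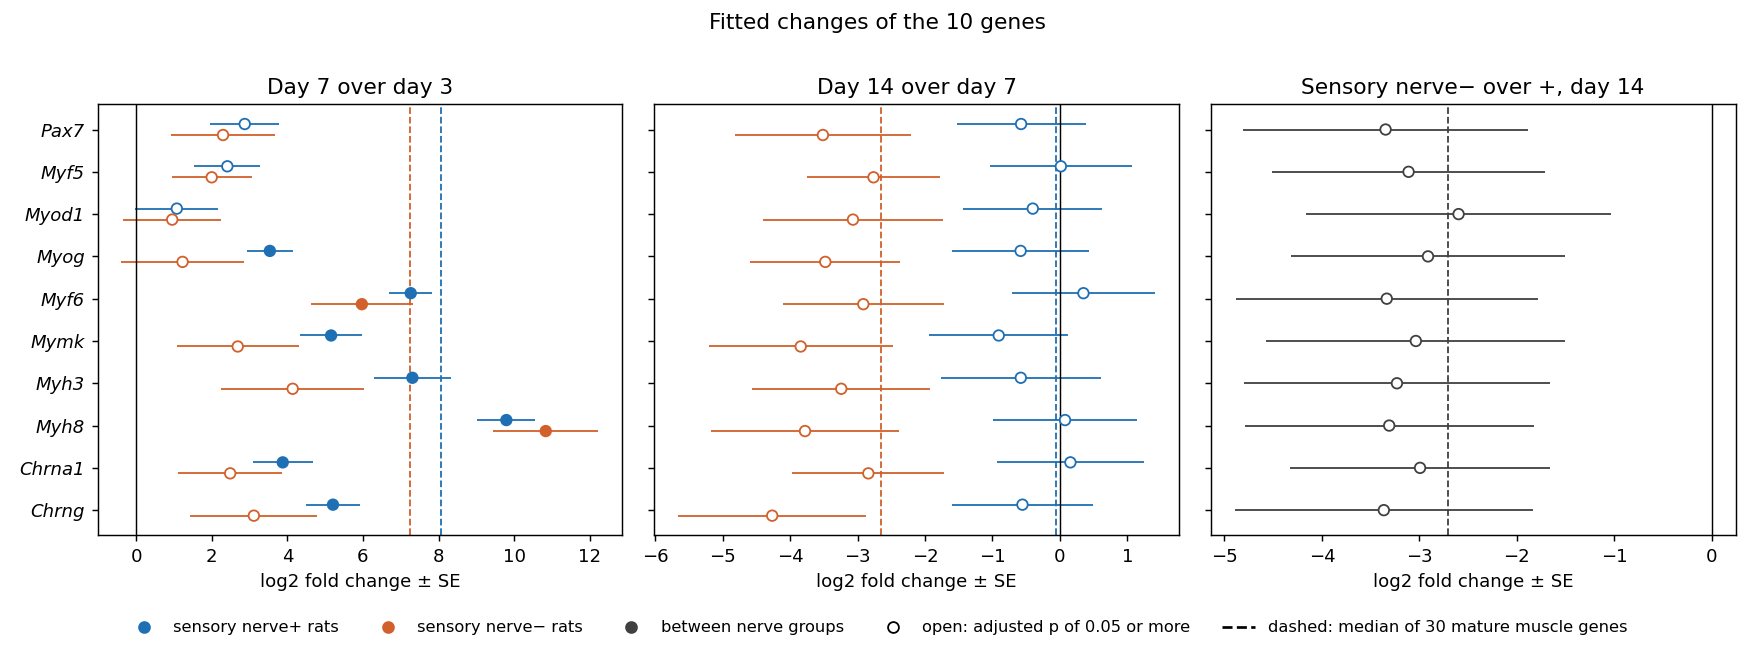
Fitted log2 fold changes (points) with standard errors (lines) for the 10 genes between days 7 and 3, between days 14 and 7, and between the nerve groups on day 14; filled points are past an edgeR adjusted p of 0.05 and dashed lines mark the median of 30 mature muscle genes. From day 3 to day 7 all members lie right of 0 and all but Myh8 left of the muscle medians, and in the other panels no point is filled.

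Replicate 4 of the sensory nerve− rats of day 3 set the level of that group for 9 of the 10 genes. Its Myog (124 CPM), Mymk (27.9), Chrng (20.5), Chrna1 (52.6), Myod1 (38.2) and Myh3 (143) were within or above the range of the sensory nerve− rats of day 7, whereas its Myh8 (1.77 CPM) and Myf6 (2.57 CPM) were below all of them. Of its heavy chain counts 89.3% were Myh3 and 8.85% were of Myh1, Myh2 and Myh4, a share that lay between 45.7% and 52.3% on day 7. The same rat had 471 CPM of Actc1, the actin that embryonic and regenerating muscle makes first, and 272 CPM of Acta1, the actin of mature fibres, where the rats of day 7 without the nerve had 118 to 1089 and 482 to 13491 CPM. Chrng held 80.0% of its 479 counts of Chrng and Chrne. Summed over genes, its members came to 45.8% of the level of its mature muscle list, against 10.1% to 17.5% in the rats of day 7 without the nerve. Other rats of day 3 came near it: the share was 26.3% to 42.5% with the nerve intact and 15.7%, 29.1% and 9.70% in sensory nerve− replicates 1 to 3. The defining markers of heart muscle were near 0 in it and in every other rat: the 5 cardiac genes measured summed to at most 6.34 CPM. Its osteoblast, leukocyte and Schwann cell lists lay within the range of the other rats of day 3.

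On day 3 the transection gave 0 called genes among 14695 by edgeR (0% called; 122, or 0.83%, had an unadjusted p under 0.05, and DESeq2 called 0), and 0 of the 9 members tested, Myf6 being under the filter. Mean levels were 32.5 ± 61.3 CPM (SD, n = 4) for Myog and 37.1 ± 70.7 for Myh3 without the nerve against 7.00 ± 2.9 (n = 3) and 6.44 ± 4.96 with it, and the log2 differences were 2.20 ± 1.94 and 2.50 ± 1.96 (edgeR adjusted p = 1.00 for both). Without replicate 4 of the sensory nerve− group these turned to -1.86 and -1.83, so that their direction rested on that rat.

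On day 7 the transection gave no called member, and the errors were wide. Of 14716 genes 0 were called by edgeR (0% called; 215, or 1.46%, at an unadjusted p under 0.05, and 1 by DESeq2), and the members differed by between -0.61 (Myh3, SE 0.94) and 0.50 (Myh8, SE 0.97) on the log2 scale, with every member overlapping between the groups. A change of 1 log2 unit in either direction lay within 2 SE of every member but Myf5, whose difference was -0.36 ± 0.64. The mean of Myh8 was 2155 ± 3053 CPM without the nerve and 1521 ± 912 with it, the former carried by replicate 1, without which the log2 difference was -1.24.

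On day 14 all 10 genes were lower on average without the nerve, with log2 differences from -2.60 (Myod1) to -3.36 (Chrng), and none passed. Mean levels without and with the nerve were 1.38 ± 2.02 and 13.7 ± 9.46 CPM for Pax7, 6.87 ± 7.98 and 51.7 ± 42.8 CPM for Myog, 68.9 ± 82.3 and 651 ± 440.1 CPM for Myh3, and 157 ± 175 and 1564 ± 1257 CPM for Myh8 (SD, n = 4 each). In every gene sensory nerve+ replicate 2 lay among the sensory nerve− rats or, for Myf5 and Myh3, below them, so that the groups overlapped in 10 of 10 genes; 1.96% of genes were lower without overlap. That rat also stood apart in other lists, with summed levels of 3442 CPM for the leukocyte genes, 759 CPM for the cell cycle genes and 122 CPM for the smooth muscle genes, against 592 to 1229, 158 to 370 and 517 to 813 CPM in the other 3 sensory nerve+ rats. The part of this in the result was not tested. edgeR called 0 of 14610 genes (0% called; 1362, or 9.32%, had an unadjusted p under 0.05, and DESeq2 called 95), and the members had unadjusted p from 0.0514 (Pax7) to 0.135 (Myod1) and adjusted p from 0.519 to 0.558. The median difference of the members was -3.17, beside -2.71 for the mature muscle list, whose 30 genes were all lower, and 0.03 for all genes. Mymx, the fusion partner of Mymk, differed by -3.43 ± 1.35 (edgeR adjusted p = 0.519). All 7 Schwann cell genes were lower, with a median of -1.71 and summed levels of 168 to 329 CPM against 261 to 2415 CPM, and all 8 osteoblast genes were higher, with a median of 1.38 and 11599.6 to 43552 CPM against 7393 to 19349.6 CPM; their part in the result was not tested.

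From day 7 to day 14 no member passed the test in either nerve group, and the fitted differences were near 0 with the nerve intact and negative without it. In the sensory nerve+ rats the log2 differences lay between -0.91 (Mymk) and 0.35 (Myf6), and edgeR called 0 members and 3 of 14867 genes (0.0202%); 0 members and 9.42% of genes had an unadjusted p under 0.05, and DESeq2 called 0 members and 325 genes. Without the nerve they lay between -4.27 (Chrng, SE 1.40) and -2.76 (Myf5, SE 0.99). All 10 had an unadjusted p under 0.05, as did 11.1% of genes in this direction, but no member passed the adjustment (smallest edgeR adjusted p = 0.138, Myog). Here edgeR called 2 of 14447 genes (0.0138%) and DESeq2 called 1991, 8 members among them. Myf5, Myog, Mymk and Chrng did not overlap between the days, as was so for 6.49% of genes in this direction. The mature muscle list had a median of -2.65, with 6 of its 29 tested genes at an unadjusted p under 0.05, the fusion gene Mymx had -4.23 and the fetal actin Actc1 -3.88, while Chrne had -1.78. The 8 osteoblast genes were all higher on day 14, with a median of 2.63. Here and in the interaction below, the day 7 rats without the nerve were those deposited apart, so the separate deposit may contribute. Whether the course from day 7 to 14 differed between the nerve groups was tested by the interaction. It was negative for all 10 members, from -3.82 (Myh8, SE 1.58, unadjusted p = 0.0260) to -2.62 (Myh3, SE 2.13), and edgeR called 0 of 15858 genes (0% called; 611, or 3.85%, at an unadjusted p under 0.05, and 2 by DESeq2; adjusted p of the members 0.884 to 0.886).

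Rats of 1 group and day differed widely in these genes, and they differed together with mature muscle. A mature muscle score was taken as the mean log2(CPM + 0.5) of the 30 genes, and each member was correlated with it over the 8 rats of a day (20 relations, exact permutation tests, two-sided, Benjamini-Hochberg adjusted over the 20). On day 14 the scores were 9.57, 3.07, 8.80 and 9.17 with the nerve intact and 2.89, 5.39, 7.80 and 3.51 without it. Pearson's r lay between 0.893 (Chrna1) and 0.988 (Myf6) and Spearman's rho between 0.833 and 1.00, and all 10 members passed by the exact permutation test (largest adjusted p = 0.00947). Only the members were tested, on this day and on day 7, so the share of all genes that would pass is not known. Without the 2 rats farthest from the median score r lay between 0.828 and 0.982, and 9 of 10 still passed. The scores were uneven, with 3 rats near 3 and 4 above 7, each too few for a value of its own, as is each nerve group with 4 rats. After centring on the nerve group means all 10 passed. The centred values were permuted over all 8 rats and not within nerve groups, so the p-values of that setting are approximate.

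On day 7 the correlations ran from 0.297 to 0.976, and differences between them were not tested. Scores ran from 7.53 to 9.31 with the nerve intact and were 10.27, 7.22, 7.78 and 5.96 without it. The rats without the nerve were those deposited apart, so the separate deposit may contribute to the correlations. Myf6 (r = 0.976, rho = 0.976) and Myh8 (r = 0.952, rho = 0.905) followed the score most closely, and Pax7, Myf5, Myod1, Myh3 and Myog had r between 0.751 and 0.860, all 7 past the exact permutation test by Pearson's r and 4 of them, Pax7, Myod1, Myf6 and Myh8, by rho. Mymk (r = 0.616, rho = 0.50), Chrng (r = 0.587, rho = 0.476) and Chrna1 (r = 0.297, rho = 0.333) did not pass (exact permutation test, adjusted p = 0.117, 0.135 and 0.474). Without the 2 rats farthest from the median score, at n = 6, only Myf6 passed after adjustment (r = 0.932). There r was 0.852 for Myh8, 0.825 for Myf5, 0.753 for Myod1 and 0.715 for Pax7. It was 0.548 for Myh3 and 0.505 for Myog, beside 0.635 for Chrna1 and 0.617 for Mymk. Without sensory nerve− replicate 3, whose Mymk (117 CPM), Chrna1 (237 CPM) and Chrng (120.5 CPM) were high for its score of 7.78, Mymk (r = 0.799) and Chrng (r = 0.822) passed too.

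**Figure D4:**
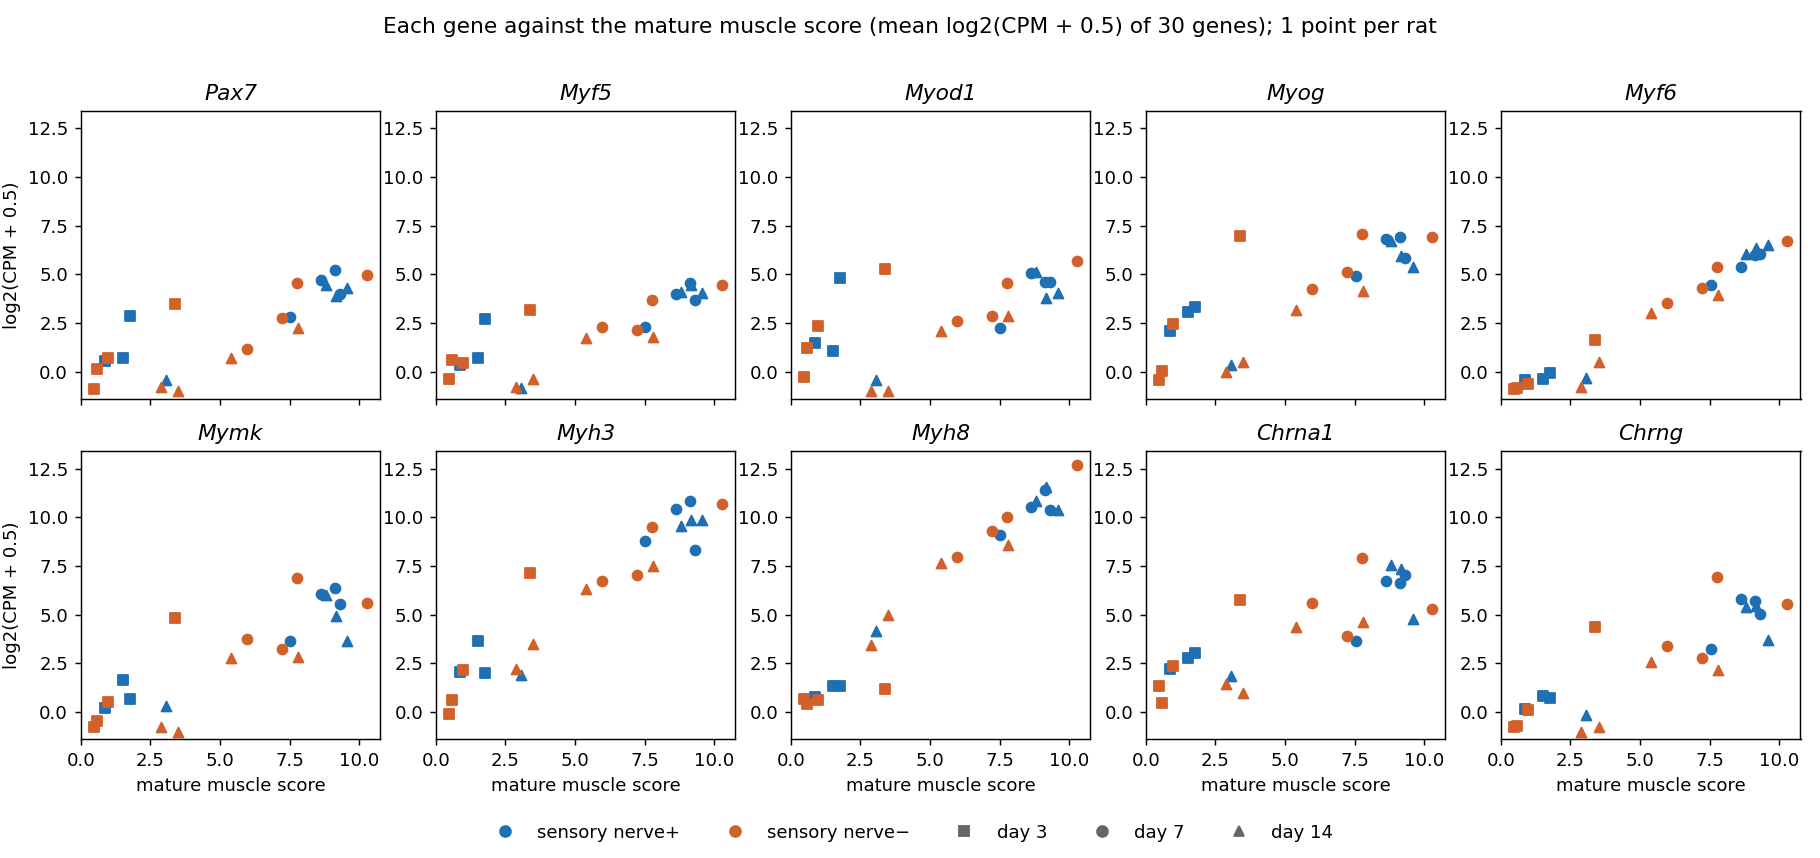
Level of each gene as log2(CPM + 0.5) against the mature muscle score, the mean log2(CPM + 0.5) of 30 mature muscle genes, with 1 point per rat; colour gives the nerve group and shape the day. On days 7 and 14 the points of all genes run upwards with the score, and the square at a score of 3.38, sensory nerve− replicate 4 of day 3, lies above the other rats of like score for all genes except Myh8.

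The summed level of the members was also set against that of the mature muscle list, without a test. It was 26.3% to 42.5% on day 3, 5.05% to 14.2% on day 7 and 4.86% to 12.7% on day 14 with the nerve intact. Without the nerve it was 9.70% to 45.8%, 10.1% to 17.5% and 4.14% to 12.8%. The members were thus lower relative to mature muscle after day 3 with the nerve intact, with no overlap, and days 7 and 14 overlapped in both nerve groups.

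Over all 23 rats, the genes outside the 10 whose log2 levels were most like those of 3 members were named as a description, since the rats share days and groups. For Pax7 these were Cavin4 (r = 0.979), Dok7 (r = 0.978) and Fgfr4 (r = 0.978), for Myog Actc1 (r = 0.984), Klhl40 (r = 0.973) and Ankrd1 (r = 0.964), and for Myh3 Tnni1 (r = 0.995), Myl4 (r = 0.988) and Tmem182 (r = 0.987). Fgfr4 is a growth factor receptor of myoblasts, Dok7 a protein of the neuromuscular junction, Actc1, Tnni1 and Myl4 are sarcomere genes of fetal and slow or cardiac muscle, and Tmem182 belongs to the fusion list.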

How the data were processed

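Tissue RNA of 23 rats was used, and the macrophage samples of the series were not used here. The authors removed low-quality reads, aligned the rest to mRatBN7.2 by HISAT and made expected counts, which are the deposited values; the submitters' processing notes also name Bowtie2, and the counting program is not given in the sources used here. Of the deposited values 37.0% were whole; all were rounded. Expected counts share reads between near-identical genes, and strand use was not stated. Each library was counted as 1 rat, though the labels do not say whether equal replicate numbers mark 1 animal. The tests took the samples as independent and judged differences against the spread between them.

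Counts were scaled by TMM, filtered by filterByExpr and tested by the quasi-likelihood test of edgeR 4.0.16 (limma 3.58.1, R 4.3.3), each comparison on its own groups and the interactions on all rats, with Benjamini-Hochberg adjustment. Standard errors were derived from the F statistic. Levels are TMM-scaled CPM, and log2 values use a pseudocount of 0.5. Wilson intervals are at 95% and the floor is 3 counts; both cover counting error only. Correlations were tested by exact permutation. Scripts were tested on simulated data. Figures and tables were made in Python 3.11.15 with numpy 2.4.6, pandas 2.3.3, scipy 1.17.1 and matplotlib 3.10.9.

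The 10 genes and the other lists were chosen with earlier results of these data known. The rule names the 10 genes in each comparison, given as ranges where none passed, and other lists by counts and the 3 genes with the smallest p where a passage is about them, Myh1, Myh2, Myh4, Myh7 and Chrne for contrast, and the 3 most correlated genes for Pax7, Myog and Myh3; 1 gene that this rule names is not reported here. Alternatives were DESeq2 1.42.0, RLE size factors, library totals, no or a stricter filter, a replicate block, each rat left out and all rats in 1 fit. Promoters are RefSeq's on GRCr8; a match is a description of letters.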

Additional observations from a re-analysis of the deposited data

Results flagged for a closer look

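In 11 of 50 groups of 4 rats, 1 rat lay farther from its nearest neighbour, relative to the range of the group, than Dixon's 95% critical value allows. That value presumes normally spread data, where chance gives about 1 in 20 groups. It was applied to CPM without a log, which range widely within a group. The rate therefore does not hold here, and no excess is read from the 11. The 10 genes are also not independent of each other, so that 1 rat can give many of these. Of the 11, 9 were sensory nerve− replicate 4 of day 3, the highest of its group with Pax7 at 10.7, Myf5 at 8.46, Myod1 at 38.2, Myog at 124, Myf6 at 2.57, Mymk at 27.9, Myh3 at 143, Chrna1 at 52.6 and Chrng at 20.5 CPM. The highest of the 3 other rats had 1.14, 0.986, 4.65, 4.94, 0.142, 0.950, 3.94, 4.70 and 0.570 CPM. For Myh8 this rat was not apart, at 1.77 CPM. The other flagged values were both in sensory nerve− rats of day 7: Myh8 at 6710.4 CPM in replicate 1, where the other rats had 251 to 1020.1 CPM, and Chrna1 at 237 CPM in replicate 3, where they had 14.4 to 48.4 CPM. Replicate 1 of that day also had the highest mature muscle score of all 23 rats, 10.27. What sets these rats apart was not tested.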

How the results depend on the processing

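The counts of called genes and, in some comparisons, of called members depended on the method. DESeq2 called 1 gene for the transection on day 7 and 95 on day 14, 2808 genes for day 7 over day 3 with the nerve intact and 3217 without it, 325 and 1991 for day 14 over day 7, 3375 for day 14 over day 3 with the nerve intact, and 8 and 2 for the interactions. It called 9 members for day 7 over day 3 with the nerve intact, Pax7 and Myf5 in addition, and 3 without it, Myh3 in addition, 8 members for day 14 over day 7 without the nerve and 7 for day 14 over day 3 with it. Scaling by library totals gave 579 genes for day 7 over day 3 with the nerve intact (87.6% of them higher, against 73.2% with TMM), 13 and 21 for day 14 over day 7 with and without the nerve, 547 for day 14 over day 3 with it (65.4% higher, against 46.6%) and 1184 without it (26% higher, against 37.8%), and 2 members for day 14 over day 3 with the nerve intact. It also moved the median of all genes to -0.41 for the transection on day 14 and -0.40 for day 14 over day 7 without the nerve, far less than the differences of the members. With all 23 rats in 1 fit, 2 members were called for day 7 over day 3 with the nerve intact and 3 for day 14 over day 3, and 2287, 927 and 2606 genes for day 7 over day 3 without the nerve, day 14 over day 7 without it and day 14 over day 3 with it. The deviations of rats with equal numbers correlated over 0.1 in every pair in 0 of 9 comparisons (in 3 of 4 pairs for the transection on day 7), and each rat correlated best with its own number in 0 of 9 (3 of 4 rats for the transection on day 7), so the numbers were not taken as pairs. With a replicate block, 122 genes and 2 members were called for day 7 over day 3 with the nerve intact, 2 genes and 0 members without it, 0 genes in both comparisons of days 14 and 7, and 0 genes and 0 members for day 14 over day 3 with the nerve intact. Signs under the block were not followed for all members: for the transection only Myog and Myh3 were followed on day 3, and only Myh3 and Myh8 on day 7. Among those followed, the sign turned for Myog (-2.79) and Myh3 (-1.98) in the transection on day 3 and for Myh8 (-0.40) on day 7. It also turned for Myod1 (-0.074) for day 14 over day 3 with the nerve intact, and for Myog (0.33), Mymk (1.08), Chrna1 (1.16) and Chrng (1.25) without it. None of them was called.

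With each rat left out in turn, day 7 over day 3 gave 254 to 1547 genes and 2 to 7 members with the nerve intact, and 0 to 1359 genes and 0 to 6 members without it; day 14 over day 7 gave 0 to 28 and 0 to 814 genes; day 14 over day 3 gave 0 to 3133 genes and 0 to 7 members, and 1620 to 4346 genes and 1 member. Members past the test against the muscle score on day 7 numbered 4 to 9, and 1 without the 2 farthest rats. Among the members followed in these fits signs turned 13 times, all of uncalled members, 10 of them without sensory nerve− replicate 4 of day 3. Not all members were followed, so more signs may have turned. For the transection only Myog and Myh3 were followed on day 3, and only Myh3 and Myh8 on day 7. For each interaction 1 member was followed, and for days 14 over 7 with the nerve intact none. The median over the members in the transection on day 3 reached -1.86, against 1.29 with all rats. The ranges over the fits were, for the transection on day 3, -1.86 to 2.61 (Myog) and -1.83 to 3.34 (Myh3), on day 7 -1.24 to 0.93 (Myh8), for day 14 over day 3 with the nerve intact -0.050 to 3.04 (Myod1), without it -2.88 to 1.15 (Pax7), -1.32 to 1.08 (Myf5), -3.14 to 0.15 (Myod1), -3.29 to 1.80 (Myog), -1.78 to 2.87 (Mymk), -0.29 to 5.20 (Myh3), -0.97 to 2.17 (Chrna1) and -2.03 to 3.09 (Chrng), and for the interaction of days 7 and 3 -4.15 to 1.21 (Myh3). RLE size factors and the filters changed no count of members. What makes the settings differ was not tested. Depth limits Myf6, Pax7, Chrng, Mymk, Myf5 and Myod1, which reached 3 counts or fewer in some rats.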
